A study of Mus musculus with 2 samples.

Results

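The crystallin genes compared here come from a table of transcript levels in mouse cells and tissue. They were chosen by name, as the α-crystallin genes Cryaa and Cryab, the acidic β-crystallin genes Cryba1, Cryba2 and Cryba4, the basic β-crystallin genes Crybb1, Crybb2 and Crybb3, the γS-crystallin gene Crygs, and Crym, and made up 10 of 31253 genes. One RNA sequencing library was made from mouse neural retinal progenitor cells (mNRPCs), which had been grown from the neural retina of adult C57BL/6 mice to passage 24. According to the study's methods, they were kept in a chemically defined medium to which bFGF (a fibroblast growth factor) and the small molecule CHIR99021 (which blocks the kinase GSK3) were added. The other library was made from retina tissue of the same strain, untreated as far as the labels say, and the age of those animals is not in the labels. Each group had 1 library, so differences have no replicate check and no p-value was calculated.

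Crystallins were first known as the abundant soluble proteins of the eye lens. The α-crystallins are small heat shock proteins, which bind unfolded proteins and keep them from clumping. The β- and γ-crystallins share a fold of Greek key motifs and fill the cytoplasm of lens fibre cells. The μ-crystallin gene Crym has another origin, and its product binds thyroid hormone with NADPH and reduces ketimines. Outside the lens, αB-crystallin is made in muscle, heart, glia and pigment epithelium, and crystallin messages are known to occur in retina at low levels and to change with stress or injury.

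Levels are FPKM, a count of fragments set relative to transcript length and library size, summed over the transcripts of a gene. The estimated depth was 6.65e+06 fragments for mNRPCs and 4.90e+06 for retina. Over all 13780 genes that reached 1 FPKM in a library, 30.0% were at least 2-fold lower in mNRPCs and 24.5% at least 2-fold higher. Of the 10 genes of a Müller glia list, 9 were at least 2-fold lower in mNRPCs and Vim was higher. The list summed to 3225 FPKM in mNRPCs and 2417 FPKM in retina, of which Vim was 3138 FPKM and 101 FPKM. All 20 genes of a rod list were at least 2-fold lower in mNRPCs, against the same 30.0% of all genes. Their sum was 50.4 FPKM in mNRPCs and 36609 FPKM in retina. The 9 pigment epithelium genes summed to 0.309 FPKM and 61.8 FPKM, with 6 of them listed at 0 in mNRPCs. Of all 31253 genes, 16079 were listed at 0 in mNRPCs. Rod and pigment epithelium markers were thus found in the retina library and were low in mNRPCs. In bulk samples, fewer cells of a type and less RNA per cell cannot be told apart. The part of these marker differences in the crystallin values was not tested.

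The promoter sequences of 3 members are shown because they carry the elements that lens crystallin promoters are known for, while their genes were at different levels. They are the 250 bases before the gene start in RefSeq GRCm38.p6, read 5′ to 3′ on the strand of the gene. Capitals mark TGCTGA, the core of a Maf response element (Maf proteins being lens transcription factors), on either strand, so that TCAGCA is the same motif reversed, and the TATA motifs TATAAA and TATATA. Cryaa lies at chr17:31677681-31677930 on the plus strand, Crybb1 at chr5:112255570-112255819 on the plus strand and Crygs at chr16:22811411-22811660 on the minus strand.
Cryaa: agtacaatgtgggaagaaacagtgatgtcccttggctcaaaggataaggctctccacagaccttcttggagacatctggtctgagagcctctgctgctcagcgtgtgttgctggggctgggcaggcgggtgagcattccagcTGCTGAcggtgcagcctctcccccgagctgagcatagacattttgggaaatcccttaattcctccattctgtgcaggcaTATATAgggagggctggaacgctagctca
Crybb1: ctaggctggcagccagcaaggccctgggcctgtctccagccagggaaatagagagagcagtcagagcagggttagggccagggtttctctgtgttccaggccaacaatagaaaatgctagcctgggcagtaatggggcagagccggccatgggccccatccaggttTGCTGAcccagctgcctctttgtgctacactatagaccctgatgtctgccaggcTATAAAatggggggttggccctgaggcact
Crygs: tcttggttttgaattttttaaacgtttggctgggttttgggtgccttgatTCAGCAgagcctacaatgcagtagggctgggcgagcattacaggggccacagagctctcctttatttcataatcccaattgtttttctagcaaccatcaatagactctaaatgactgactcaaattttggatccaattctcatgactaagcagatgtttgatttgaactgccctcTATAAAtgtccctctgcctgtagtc

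TGCTGA began 108 bases before the start of Cryaa, 84 before that of Crybb1 and 200 before that of Crygs. It was found in 7 of the 8 members with a sequence in the RefSeq promoter table, Crybb2 being without it, and in 16.1% of 32851 promoters of the same length. All motifs were searched on both strands. TATAAA was found in 3 of 8 members (Cryba1, Crybb1 and Crygs) and in 12.4% of all promoters. TATATA, which was added after the Cryaa sequence was seen, was found in 1 of 8 members and in 5.25% of all. The letters GAANNTTC, a pair of heat shock element units facing each other, were in none of the 8 windows and in 6.69% of all promoters. ACAAT, the core bound by Sox proteins, was in 4 of 8 members and in 27.7% of all. These matches are a description of letters. Members with the same letters stood at different levels, since Cryaa was listed at 0 in both libraries while Crybb1 and Crygs were above 1 FPKM in mNRPCs. Cryab and Crym were not matched in the promoter table.

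Of the 10 members, 4 reached 1 FPKM in a library and were compared on the log2(FPKM + 1) scale. Cryab, Crybb1 and Crygs were at least 2-fold higher in mNRPCs and Crym was at least 2-fold lower. Over all 13780 genes that were compared, the share at least 2-fold higher in mNRPCs was 24.5% and the share at least 2-fold lower was 30.0%. Crybb1 and Crygs passed the minimum of 1 FPKM only through mNRPCs and Crym only through retina, so the minimum itself favours genes that differ and their number is no support by itself. The remaining 6 members stayed below 1 FPKM in both libraries. Summed over all 10 members, the level was 45.2 FPKM in mNRPCs and 41.9 FPKM in retina, which is 0.00732% and 0.00969% of the FPKM of each library. With curated transcripts only, the sums were 32.8 FPKM and 41.2 FPKM. With each library rescaled to a common sum, they were 73.2 in mNRPCs and 96.9 in retina. The order of the sums thus depends on the transcripts included and on the scaling. Cryab held 89.5% of the sum in mNRPCs and 35.8% in retina, and Crym held 0.268% and 61.6%.

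**Figure D1:**
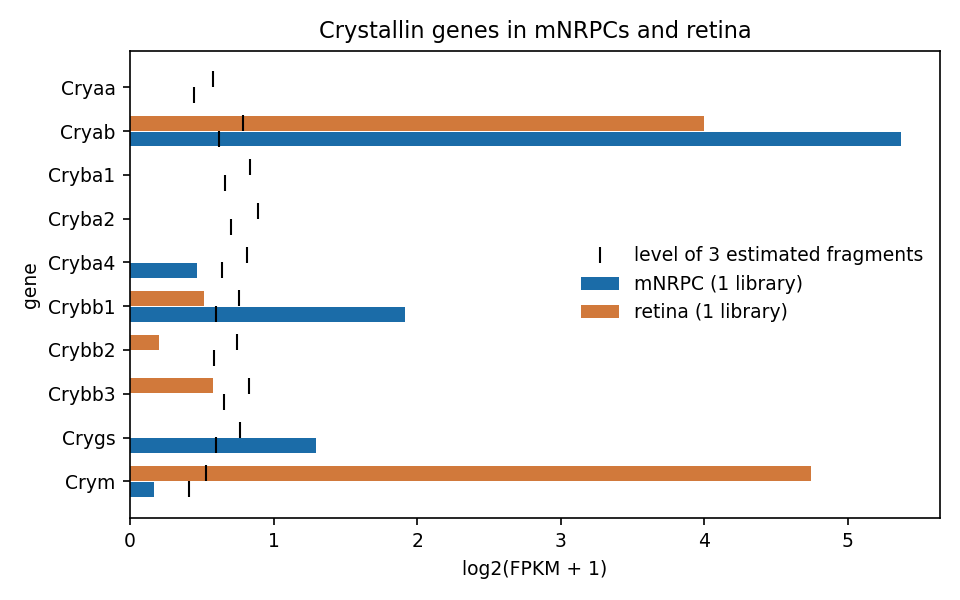
Level of the 10 crystallin genes (horizontal axis, log2(FPKM + 1)) in the mNRPC library and the retina library, 1 bar per library and gene, with no error bars because each group had 1 library and with a tick at the level that 3 estimated fragments would give. Cryab is the highest bar of mNRPCs (40.4 FPKM) and Crym that of retina (25.8 FPKM), while the β- and γ-crystallins stay below 3 FPKM.

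The order of the members differed between the libraries. In mNRPCs it ran from Cryab at 40.4 FPKM through Crybb1 at 2.77 FPKM and Crygs at 1.46 FPKM to Cryba4 at 0.384 FPKM and Crym at 0.121 FPKM, and the other 5 were listed at 0. In retina it ran from Crym at 25.8 FPKM and Cryab at 15.0 FPKM to Crybb3 at 0.492 FPKM, Crybb1 at 0.429 FPKM and Crybb2 at 0.150 FPKM, and the other 5 were listed at 0. Neighbours at the low end of either order rest on at most 2.06 estimated fragments each and their order is not resolved at this depth. Cryab was above 93.1% of all genes in mNRPCs and above 84.0% in retina. Crym was above 90.5% of all genes in retina.

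Cryaa (chr17:31677931-31681730), which encodes αA-crystallin, the lens-enriched partner of αB-crystallin, was listed at 0 in both libraries on all 3 of its transcripts. At the estimated depth, 3 fragments of this gene would have given 0.360 FPKM in mNRPCs and 0.488 FPKM in retina, so a level below these would not have been detectable. An entry of 0 can also be a failed estimate, since 4 of 81 ribosomal protein genes were listed at 0 in mNRPCs and 2 of 81 in retina. Of the sequence windows of 50 bases in Cryaa transcripts, 177 of 2115 (8.37%) were shared with AC090881.2 on the opposite strand, and whether reads were assigned by strand is not stated.

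Cryab (chr9:50745951-50756636), which encodes αB-crystallin, a chaperone of desmin and other filaments, was at 40.4 FPKM in mNRPCs and 15.0 FPKM in retina. The log2 ratio was 1.37 on the log2(FPKM + 1) scale. These levels stand for about 231 and 62.2 estimated fragments, and the ratio of the FPKM values was 2.69, with a 95% interval of 2.06 to 3.69 (exact binomial) that covers counting error only. The higher level in mNRPCs did not come from every transcript of the gene. NM_009964, the transcript with the highest retina level, was at 12.6 FPKM in mNRPCs and 12.1 FPKM in retina, a log2 ratio of 0.05. NM_001289785 was also alike in both, at 2.40 FPKM and 2.63 FPKM. NM_001289784 was at 13.4 FPKM in mNRPCs and 0.259 FPKM in retina, and the predicted XM_006509970 at 10.3 FPKM and 0.00841 FPKM. The remaining transcript, NM_001289782, was at 1.82 FPKM and 0.00207 FPKM. The retina level thus lay on NM_009964 for 80.7%, and that of mNRPCs was spread, with 31.0% on NM_009964, 33.1% on NM_001289784 and 25.4% on the predicted transcript. Reads shared by transcripts are divided among them by estimation, and 3 of the curated transcripts are paired with the same GENCODE model, so a share is less certain than the sum.

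**Figure D2:**
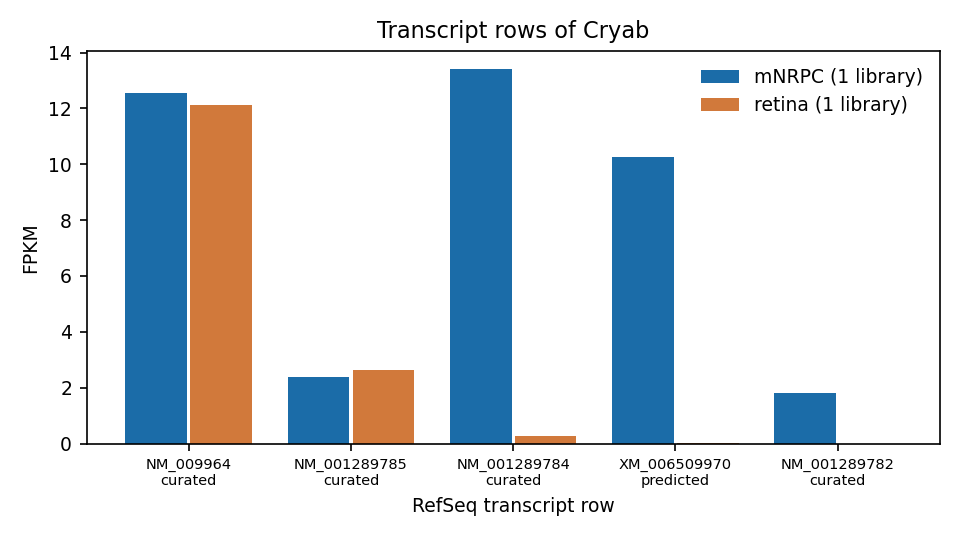
FPKM of the 5 Cryab transcripts in the mNRPC and the retina library, 1 bar per library and transcript, without error bars as each group had 1 library. NM_009964 is level between the libraries (12.6 and 12.1 FPKM), and NM_001289784 and the predicted XM_006509970 are above 10 FPKM in mNRPCs only.

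The Cryab difference depended on which transcripts were summed. With curated transcripts only, Cryab was at 30.2 FPKM in mNRPCs and 15.0 FPKM in retina, a log2 ratio of 0.96, which is under the 2-fold threshold. With each library rescaled to a common sum, the log2 ratio was 0.90, also under it. Without NM_009964, an alternative added after the values were seen, the levels were 27.9 FPKM and 2.90 FPKM and the log2 ratio was 2.89. Cryab was higher in mNRPCs in each of these settings, by an amount that changed with the transcripts included.

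Cryab lies head to head with Hspb2, a small heat shock protein gene on the minus strand, and the starts of the models paired with NM_009964 (chr9:50752993) and with the Hspb2 transcript NM_024441 (chr9:50752293, both GENCODE M21) are 700 bases apart. Hspb2 was at 31.4 FPKM in mNRPCs and 0.911 FPKM in retina, a log2 ratio of 4.09. The retina level of Hspb2 stands for about 2.46 estimated fragments, under the 0.925 FPKM that 3 would give. The ratio of Cryab to Hspb2 FPKM was 1.29 in mNRPCs, and the ratio in retina is poorly fixed for that reason. The first exon of NM_001289782 has 252 bases, and all 252 lie inside an exon of Hspb2 on the other strand. Of the 50-base windows of Cryab transcripts, 203 of 1522 (13.3%) were shared with Hspb2 in reverse, and the other 8 members beside Cryab and Cryaa shared none with another gene. Without strand, reads of that exon cannot be assigned to either gene. Leaving NM_001289782 out, also an alternative added after the values were seen, gave 38.6 FPKM in mNRPCs and 15.0 FPKM in retina, a log2 ratio of 1.31. With the other curated transcripts only, the levels were 28.4 FPKM and 15.0 FPKM, a log2 ratio of 0.88, which is under the 2-fold threshold. The predicted Cryab transcript is not paired with a GENCODE model here, so its overlap with Hspb2 was not checked.

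Within 100 kb of Cryab, a window chosen after the values were seen, 9 genes were in the table, of which 3 were at least 2-fold higher in mNRPCs, 3 were at least 2-fold lower and the other 3 were within 2-fold. Over all genes compared these shares were 24.5% and 30.0%. The higher count holds Cryab itself, on which the window was centred, and neighbours whose spans overlap that of Cryab. It is therefore not read against these shares. The higher genes were Cryab, Hspb2 and 2310030G06Rik, whose span overlaps that of Cryab by 577 bases and which was at 5.34 FPKM in mNRPCs and 0.154 FPKM in retina. The lower ones were Dixdc1, at 1.93 FPKM and 19.4 FPKM, 1110032A03Rik, at 2.30 FPKM and 7.06 FPKM, and Gm38476, listed at 0 in mNRPCs and at 3.16 FPKM in retina. Dlat, at 22.9 FPKM and 16.8 FPKM, and Alg9, at 11.0 FPKM and 6.62 FPKM, differed less. Fdxacb1, also within 2-fold, went the other way, at 2.77 FPKM in mNRPCs and 5.01 FPKM in retina.

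**Figure D3:**
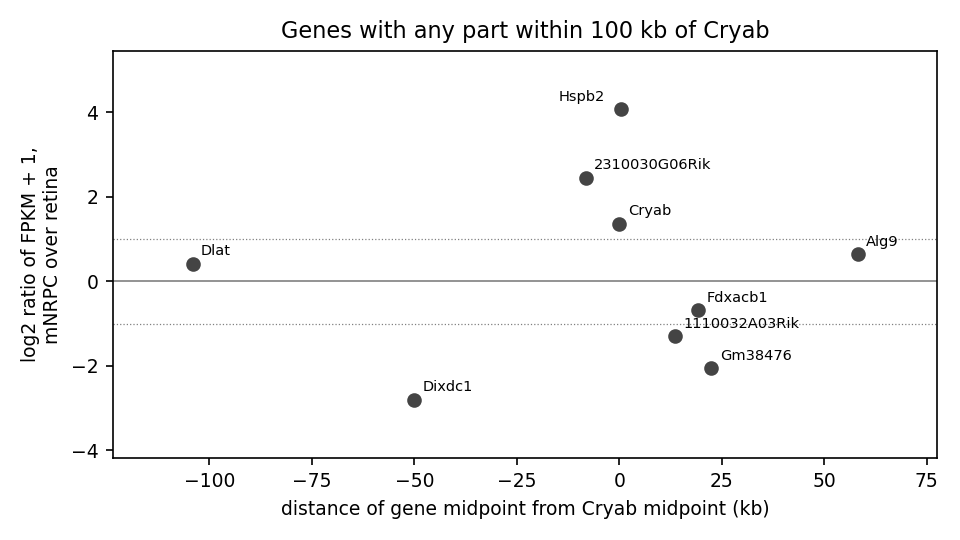
Log2 ratio (mNRPC over retina, on log2(FPKM + 1), vertical axis) of the 9 genes with any part within 100 kb of Cryab, by the distance of a gene's midpoint from that of Cryab in kb (horizontal axis), 1 point per gene from 1 library per group. Cryab (1.37), Hspb2 (4.09) and 2310030G06Rik (2.46) lie together near 0 kb, above the 2-fold line.

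The acidic β-crystallins were at or near 0 in both libraries. Cryba1 (chr11:77718614-77725293), whose product is made as longer and shorter forms from alternative start codons, and Cryba2 (chr1:74889934-74898842) were listed at 0 in both. Cryba4 (chr5:112246492-112263625) was at 0.384 FPKM in mNRPCs, about 2.06 estimated fragments, and retina had it listed at 0. Its level is under the 0.558 FPKM that 3 fragments would give in mNRPCs, so a difference was not detectable at this depth.

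The basic β-crystallins lie on chromosome 5 in the same region as Cryba4, and Crybb1 alone among them was above 3 estimated fragments in a library. Crybb1 (chr5:112254563-112269585) was at 2.77 FPKM in mNRPCs and 0.429 FPKM in retina, a log2 ratio of 1.40. These are about 16.3 and 1.85 estimated fragments, and the ratio of the FPKM values was 6.46 with a counting interval of 1.38 to 52.8. Its 7 transcripts ranged from 0.0252 to 0.966 FPKM in mNRPCs and from 0.0291 to 0.111 FPKM in retina, where each rests on a fraction of an estimated fragment. On its curated transcript alone Crybb1 was at 0.819 FPKM and 0.0815 FPKM, below the minimum of 1 FPKM. The spans of Cryba4 and Crybb1 overlap by 9063 bases, and the promoter window above belongs to a model of Crybb1 that starts inside the gene's full span.

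Crybb2 (chr5:113058258-113070117), an abundant protein of the mature lens, was listed at 0 in mNRPCs and at 0.150 FPKM in retina. Crybb3 (chr5:113075839-113082236), which is 5721 bases from Crybb2, was listed at 0 in mNRPCs and at 0.492 FPKM in retina. Their retina levels stand for about 0.665 and 1.90 estimated fragments. Both are under the limit of 3 fragments, so no difference was detectable for either.

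Crygs (chr16:22805203-22811410), the γ-crystallin that is made in the adult lens cortex, stood at 1.46 FPKM in mNRPCs and at 0 in the retina list. All of its level lay on the curated NM_009967, for about 8.49 estimated fragments. This level was 2.08 times the 0.700 FPKM that 3 fragments would give in the retina library. That ratio is not a lower bound, as it leaves out counting error in mNRPCs and an entry of 0 can be a failed estimate. Of the 7 β- and γ-crystallin members, Crygs and Crybb1 were those with a level above 3 estimated fragments, both in mNRPCs.

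Crym (chr7:120186380-120201989) was at 0.121 FPKM in mNRPCs and 25.8 FPKM in retina, the member with the widest difference. The log2 ratio was −4.58. The mNRPC level is under the 0.326 FPKM that 3 fragments would give, so it is not told from 0 at this depth, and the retina level is well above that limit. The difference rests on about 1.11 estimated fragments in mNRPCs and 175 in retina, and the ratio of retina to mNRPCs was 213 with a counting interval of 42.1 to 9442. The gene has 1 transcript in the table, so its value does not turn on how reads were divided among transcripts.

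Other genes of the same families were read from lists by name. Of 10 further β/γ-crystallin genes, 8 were listed at 0 in both libraries, among them the lens genes Cryga, Crygb and Crygc, as were 12873 of all 31253 genes. Crybg1, a β/γ-crystallin domain protein that is not a lens protein, was at 1.50 FPKM in mNRPCs and 0.00906 FPKM in retina. Crybg3, of the same kind, was at 1.35 FPKM and 2.54 FPKM. Crygs and Crybg1 thus had mNRPC levels near 1.5 FPKM, and the 8 genes at 0 hold every other γ-crystallin of the list.

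Of 12 lens fibre genes, 9 were listed at 0 in both libraries, including the water channel Mip, the connexin gene Gja3 and the filament gene Bfsp1. Of all 31253 genes, 12873 were at 0 in both. The 12 genes summed to 34.4 FPKM in mNRPCs and 7.84 FPKM in retina. Lgsn, a lens protein related to glutamine synthetase, made up most of the mNRPC sum, at 28.9 FPKM against 0.210 FPKM in retina, a log2 ratio of 4.63. Bfsp2, a lens filament gene, was at 1.65 FPKM and 0.673 FPKM, and Lenep at 3.86 FPKM and 6.96 FPKM. Defining fibre genes such as Mip and Cryaa were at 0 in the library that had Lgsn at 28.9 FPKM.

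Small heat shock protein genes other than the α-crystallins lay on both sides. Of 7 genes, 4 were compared, with Hspb1 and Hspb2 at least 2-fold higher in mNRPCs, Hspb8 at least 2-fold lower and Hspb6 within 2-fold, and a median log2 ratio of 0.41 against −0.12 over all genes. With 24.5% of all genes higher and 30.0% lower, counts of 2 and 1 in 4 say little about the list. Hspb1, which guards actin filaments, was at 34.8 FPKM in mNRPCs and 9.29 FPKM in retina. Hspb8, which works with the cochaperone Bag3, was at 0.963 FPKM and 3.55 FPKM. Hspb6, a small heat shock protein of muscle, was at 35.4 FPKM in mNRPCs and 70.6 FPKM in retina, a log2 ratio of −0.98, and was the highest of the list in retina.

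Of 14 larger chaperone genes, 5 were at least 2-fold higher in mNRPCs, 3 at least 2-fold lower and 6 within 2-fold, with a median of 0.52. Of all genes compared, 24.5% were higher and 30.0% lower by this rule, and the list was near both shares. The higher ones were Bag3, at 39.0 FPKM in mNRPCs and 2.56 FPKM in retina, the cytosolic Hsp90ab1, at 891 FPKM and 198 FPKM, the mitochondrial Hspd1 and Hspe1, at 196 FPKM and 317 FPKM in mNRPCs against 45.1 FPKM and 83.8 FPKM in retina, and Hspa5 of the endoplasmic reticulum, at 355 FPKM and 102 FPKM. Among the lower ones, Hspa1a, which heat induces, was at 1.55 FPKM and 36.3 FPKM, Hspa1b at 5.25 FPKM and 21.5 FPKM and Hsp90aa1 at 220 FPKM and 629 FPKM. Hspa1a and Hspa1b are near-identical copies, and the split between them is uncertain. Cryab, itself a heat shock gene, was higher in mNRPCs, like 5 of these 14 genes and unlike the 3 lower ones. Its difference was under 2-fold with curated transcripts only or after rescaling.

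The 8 enzyme genes that serve as crystallins in the lens or cornea of some animals, or are related to such genes, had 2 members at least 2-fold higher in mNRPCs, 2 at least 2-fold lower and 4 within 2-fold, and a median of −0.41, again near the 24.5% and 30.0% of all genes. Aldh3a1, an aldehyde dehydrogenase and the main soluble protein of the mouse cornea, was at 567 FPKM in mNRPCs and 3.28 FPKM in retina, a log2 ratio of 7.05. Cryz, the ζ-crystallin of guinea pig, was at 11.9 FPKM and 4.76 FPKM. Ldhb, the ε-crystallin of duck, was at 17.6 FPKM and 167 FPKM, and Aldh1a1, a retinal dehydrogenase, at 1.61 FPKM and 30.3 FPKM. The 4 genes of a cornea list summed to 0 FPKM in mNRPCs and 3.72 FPKM in retina. The retina sum came from the keratin genes Krt12 and Krt5, at 2.32 FPKM and 1.39 FPKM. Both were listed at 0 in mNRPCs, and Krt14 and Kera were listed at 0 in both libraries.

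**Figure D4:**
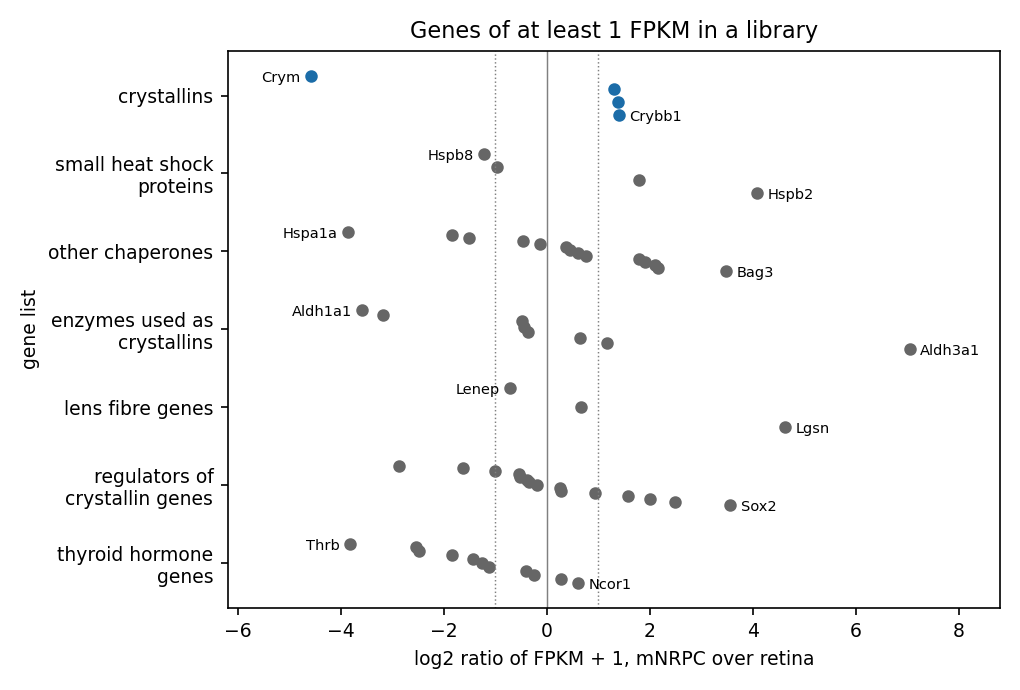
Log2 ratio (mNRPC over retina, on log2(FPKM + 1)) on the horizontal axis for each compared gene in the lists of crystallins, small heat shock proteins, other chaperones, enzymes, lens fibre genes, regulators and thyroid hormone genes, 1 point per gene from 1 library per group, with the 2-fold thresholds as dotted lines and an outermost gene named only where the text gives its value. Crym (−4.58) is the lowest point of all and Aldh3a1 (7.05) the highest.

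Transcription factors known to act on crystallin promoters fell on both sides. Of 18 regulators, 15 were compared, with 4 at least 2-fold higher in mNRPCs, 3 at least 2-fold lower and 8 within 2-fold, near the 24.5% and 30.0% of all genes. The median was −0.19, which turned to 0.25 with curated transcripts only and was −0.70 after rescaling. Sox2 was at 231 FPKM in mNRPCs and 18.5 FPKM in retina. Maf, whose protein binds the TGCTGA core, was at 24.4 FPKM and 3.52 FPKM. Tfap2a was at 31.3 FPKM and 7.08 FPKM. Those higher in mNRPCs were thus Sox2, Maf, Tfap2a and Pitx3. Pax6, which acts in both lens and retina, was within 2-fold, at 123 FPKM and 101 FPKM, as was Prox1, which drives fibre cell differentiation, at 10.7 FPKM and 13.8 FPKM. Pitx3, a lens homeobox gene, stood at 1.98 FPKM in mNRPCs, and retina had it listed at 0. The lens factor Foxe3 and Sox1, which drives γ-crystallin genes, were listed at 0 in both. Hsf4, the heat shock factor of the lens, was at 1.10 FPKM and 5.55 FPKM, and Hsf1, the factor of the heat shock response, at 7.13 FPKM and 10.8 FPKM.

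For Crym, genes of thyroid hormone action were read beside it. Of 13 genes, 11 were compared, with 7 at least 2-fold lower in mNRPCs, none at least 2-fold higher and 4 within 2-fold, and a median of −1.26. Over all genes compared, 30.0% were at least 2-fold lower and 24.5% at least 2-fold higher, and with both libraries rescaled to the same sum 42.4% of all genes and 8 genes of the list were lower. The receptor genes Thrb, at 0.0707 FPKM in mNRPCs and 14.1 FPKM in retina, and Thra, at 18.8 FPKM and 69.7 FPKM, were among the lower ones. Slco1c1, a thyroxine carrier, was at 0.0383 FPKM and 5.08 FPKM, and Dio2, the enzyme that activates thyroxine, at 1.52 FPKM and 4.51 FPKM. The receptor partner Rxrg was listed at 0 in mNRPCs and at 4.61 FPKM in retina. Dio3, whose product inactivates the hormone, was at 0.786 FPKM in retina, below the minimum for comparison, and at 0 in the mNRPC list. The coactivator gene Ncoa1 was lower in mNRPCs, at 3.38 FPKM and 10.8 FPKM. The corepressor gene Ncor1 was within 2-fold, at 23.5 FPKM and 15.0 FPKM. On the log2(FPKM + 1) scale Crym, at −4.58, lay below all 11, the nearest being Thrb at −3.82. The mNRPC levels of Crym and Thrb rest on about 1.11 and 2.52 estimated fragments, under the limit of 3. Which of them had the larger fold difference is therefore not resolved at this depth.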

How the data were processed

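The members and gene lists were chosen with earlier results of these data known. RNA of mNRPCs (passage 24) and retina was sequenced, 1 library each. Per the deposited table, the authors gave FPKM for 106754 RefSeq transcripts. The submitters' processing notes name TopHat2 2.0.10 and GRCm38.p3, while the study's methods describe Bowtie 2 and eXpress, and the series text and the methods name different sequencers. Whether strand was used in assigning reads is not given in the sources used here, and reads that fit several transcripts are divided by estimation.

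Values below 1e-06 were read as 0. Transcripts were given gene symbols by accession without version, from RefSeq GRCm38.p6 and then GENCODE M21 (74283, or 69.6%, matched, with 93.2% of the FPKM of mNRPCs and 89.9% of that of retina), and summed per gene. Coordinates are those of RefSeq GRCm38.p6, unless GENCODE is named. The log2 ratio is log2((mNRPC FPKM + 1)/(retina FPKM + 1)) with a pseudocount of 1, which understates low genes. A gene was compared where either library reached 1 FPKM, and a log2 ratio of 1 or more in size was counted as higher or lower. No test between groups was run.

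Depth was estimated from the lowest FPKM of genes with 1 transcript of at least 1500 bp, where 1 fragment sets the smallest value. The rule for reading that peak was changed after the values were seen, because the first rule gave unstable depths for retina. Depth came to 6.59e+06 and 4.81e+06 with a shortest transcript of 500 bp and to 6.58e+06 and 4.95e+06 with 2500 bp. Fragments per gene are estimates, 3 of them were taken as the detection limit, and 95% intervals are exact binomial (Clopper-Pearson) on rounded fragments. Both cover counting error only. The rule for named genes was all members with their transcripts, lens fibre genes above 1 FPKM, and from each other list up to 5 genes of the largest log2 ratio in size and direct partners or regulators. Further genes, and those near Cryab, were chosen after their values were seen. Some genes enter the list counts and are not reported here by name. Python 3.11.15, pandas 2.3.3, numpy 2.4.6 and scipy 1.17.1 were used. Another pseudocount, rescaling, trimmed mean and upper quartile scaling, curated transcripts, the highest transcript alone, versioned accessions, and other thresholds and minimums were tried.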

Additional observations from a re-analysis of the deposited data

How the results depend on the processing

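No paired analysis was possible because mNRPCs and retina had 1 library each, and for the same reason no replicate could be left out. No direction of a compared member turned under any alternative. Leaving out Cryaa, Cryba1 and Cryba2, which are at 0 in both libraries and could not move, 37 of 49 log2 ratios of single members under an alternative stayed within the 95% interval that counting error gives the reported value and 12 moved out of it, 7 of these for genes other than Cryab. The 7 were Cryba4, Crybb1, Crybb2, Crybb3, Crygs and Crym with a pseudocount of 0.1, and Crym after rescaling. With that pseudocount the log2 ratio was 3.96 for Crygs, 2.44 for Crybb1 and −6.87 for Crym. As reported these were 1.30, 1.40 and −4.58, and after rescaling Crym was at −5.66. The count of members higher in mNRPCs was 3 as reported. With curated transcripts only it was 1 (Crygs), with a log2 threshold of 2 it was 0, with a minimum of 5 FPKM it was 1, and after rescaling each library to a common sum it was 2. The count of lower members was 1, and 2 after the same rescaling, as Crybb3 then passed both limits. Over all genes compared, the higher share was 26.4% with curated transcripts, 11.2% with the threshold of 2, 26.9% with the minimum of 5 FPKM and 18.4% after rescaling, where the lower share was 42.4%. The summed FPKM of the members was 32.8 in mNRPCs and 41.2 in retina with curated transcripts. After rescaling it was 73.2 in mNRPCs and 96.9 in retina, by construction.

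The log2 ratio of Cryab was 0.96 with curated transcripts or versioned accessions, 0.05 with its highest transcript alone, 0.90 after rescaling, 1.44 with trimmed mean scaling, 1.32 with upper quartile scaling and 2.89 without NM_009964. Rescaling moved the median of all genes from −0.12 to −0.68. Relative to that median, Cryab was at 1.49 as reported and at 1.58 after rescaling. Among the lists, rescaling gave 1 lower gene of the further β/γ-crystallins (0 as reported), 1 higher enzyme (2 as reported), 3 lower small heat shock proteins (1 as reported) and 5 lower regulators (3 as reported). Upper quartile scaling gave 2 lower small heat shock proteins. Accessions matched with version left no row for Cryba1, Cryba4 and Crybb1. The cause of the changes was not tested.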
